A study of Mus musculus with 2 samples.

Results

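The transcription factors Hnf4a, Hnf4g, Lhx1, Pax8, Pou3f3, Irx1, Irx2 and Tfap2b were followed along the tubule of the newborn mouse kidney by single-cell RNA sequencing. These 8 genes were chosen by name, with earlier results of these data known, and each matched 1 of the 32285 genes counted. Their levels were compared over 5 sets of cells picked by marker genes of early nephron, proximal tubule, loop of Henle, distal tubule and collecting duct, and none of the 8 served as a marker. Kidneys were taken on the day of birth (P0), and 2 libraries, named replicate 1 and replicate 2 in order of deposit, formed 1 group. Both carry the genotype labelled Rbpj c/+ ; Foxd1cre/+, read here as a conditional Rbpj allele on 1 chromosome together with a Cre recombinase under control of Foxd1. Rbpj is the DNA-binding partner of activated Notch receptors, and Foxd1 marks the progenitors of the renal stroma, a lineage apart from the nephron epithelium. Libraries of other genotypes were not analysed here, and the genotype has no comparison. How many animals gave each library is not given in the sources used here. The p-values below rest on how far differences between sets of cells vary between these 2 libraries, with the spread shared over genes. That spread may be technical.

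A nephron arises when mesenchymal progenitors condense, turn into an epithelial vesicle and then form comma- and S-shaped bodies, in which proximal, intermediate and distal domains become distinct. The distal end of each nephron joins the collecting duct, which grows from the ureteric bud. The 8 factors hold known places in this plan. Pax8, a paired-box factor, and Lhx1, a LIM-homeodomain factor, act as the first epithelium forms. Hnf4a and Hnf4g are nuclear receptors, and Hnf4a is needed for the proximal tubule. The Iroquois homeodomain factors Irx1 and Irx2 mark intermediate domains, the POU factor Pou3f3 (Brn1) is needed for the loop of Henle, and Tfap2b, a transcription factor of the AP-2 family, is needed for distal segments.

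Cells needed at least 3000 UMIs (unique molecular identifiers, each counting 1 captured transcript), 500 or more genes, and mitochondrial UMIs of no more than 20%. After removal of likely doublets 5284 and 4064 cells remained in replicates 1 and 2, and 6 kept barcodes occurred in both libraries. Marker gating assigned 998 and 816 cells to the 5 segments. There were 235 and 70 early nephron cells, 333 and 210 proximal cells, 233 and 282 loop cells, 80 and 157 distal cells, and 117 and 97 collecting duct cells. All markers of each segment's own list were detected in its cells in both libraries. This is no check of the segments, because the cells were picked on these lists. The sums are also deep, and early nephron cells of replicate 1 held all 14 proximal markers too. Some lists leaned on 1 gene, since Slc12a1 gave 78.0% and 77.8% of the loop list, S100g 77.2% and 83.5% of the distal list and Wnt4 60.2% and 65.4% of the early nephron list. UMIs were summed per library and segment, and each sum held 2174741 to 13779324 UMIs. A level is given in CPM, the UMIs of a gene scaled to 1000000 UMIs per sum, with the value of replicate 1 before that of replicate 2. Because the 3' ends were counted, CPM values are compared between cells and never between genes. Rbpj itself lay between 31.6 and 96.1 CPM in the 10 sums, and 3' counts do not show whether its conditional allele was recombined.

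Each factor differed along the tubule, and each had its highest level in the same segment in both libraries. Lhx1 and Pax8 were highest in early nephron cells, Hnf4a and Hnf4g in proximal cells, and Irx1, Irx2, Pou3f3 and Tfap2b in loop cells. The collecting duct was the highest segment for none of them. Every segment was tested against the mean of the other 4 on the log2 scale with edgeR's quasi-likelihood test, with Benjamini-Hochberg adjustment over 15530 genes and a threshold of 0.05. Of the 40 tests of the 8 factors 32 passed, 15 with a higher and 17 with a lower level, beside 48.2% of the tests over all genes. Since the contrast is taken against a mean of log values, a segment can pass as higher while another segment lies far above it. Between pairs of segments 65 of 80 tests passed, beside 49.4% over all genes. Because the 8 were chosen with earlier results of these data known, their excess over all genes is a description without a test. All 8 factors separated early nephron from distal cells (60.4% of all genes) and proximal from loop cells (50.1%). There were 7 that separated early nephron from proximal (66.2%), loop (60.1%) and collecting duct cells (53.6%), proximal from distal cells (47.0%) and loop from collecting duct cells (36.2%). Proximal and collecting duct cells were separated by 6 (57.2%). Only 4 separated loop from distal cells (22.2%) and distal from collecting duct cells (41.0%).

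**Figure D1:**
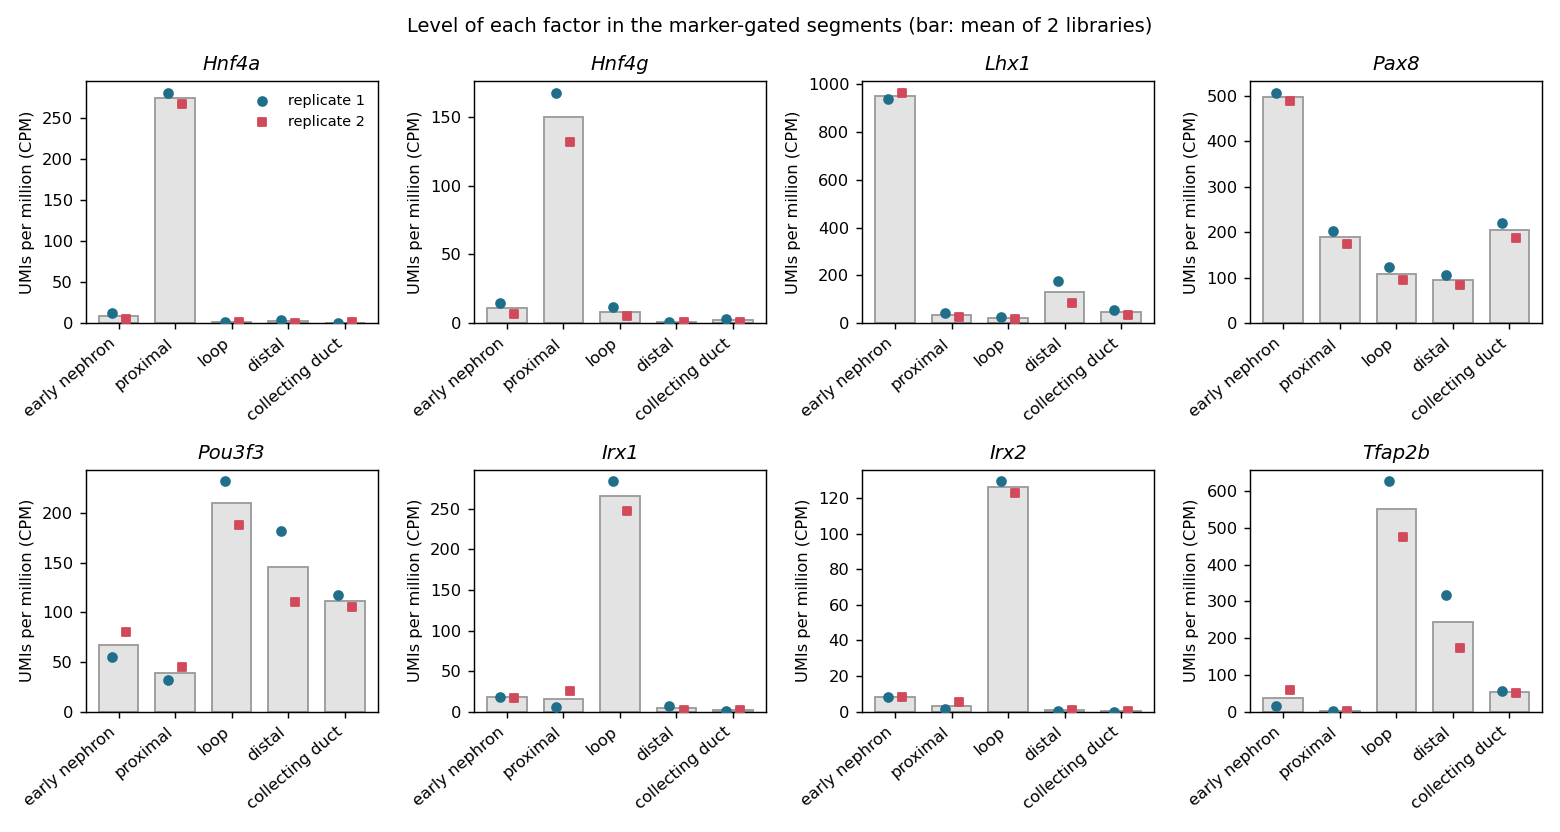
Level of each of the 8 factors in the 5 marker-gated segments, in CPM (vertical axis, from 0, a separate scale for each gene). Bars give the mean of the 2 libraries and points the single libraries; for each factor both libraries place the highest level in the same segment.

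In early nephron cells both libraries lay above all sums of the other segments for 2 of the 8 factors, as for 23.5% of all genes. In proximal cells this held for 2 (13.7% of all genes) and in loop cells for 4 (4.06%).

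By segment, 5 of the 8 factors were called higher and 1 lower in early nephron cells, where 32.7% of all genes were called higher and 31.5% lower (64.2% together). In proximal cells 3 were higher and 3 lower (31.1% and 26.4% of all genes, 57.5% together). In loop cells 4 were higher and 3 lower (20.9% and 12.8%, 33.6% together), and in distal cells 3 were higher and 5 lower (21.5% and 21.8%, 43.3% together). In collecting duct cells none was called higher and 5 were called lower (22.0% and 20.5%, 42.5% together) by edgeR's quasi-likelihood test, and none was higher at an unadjusted p under 0.05 or with DESeq2. The median log2 fold change of the 8 factors was 0.91 in early nephron, 0.13 in proximal, 0.82 in loop, -1.46 in distal and -1.91 in collecting duct cells. The median over all tested genes lay between -0.09 and 0.03 in the 5 segments.

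**Figure D2:**
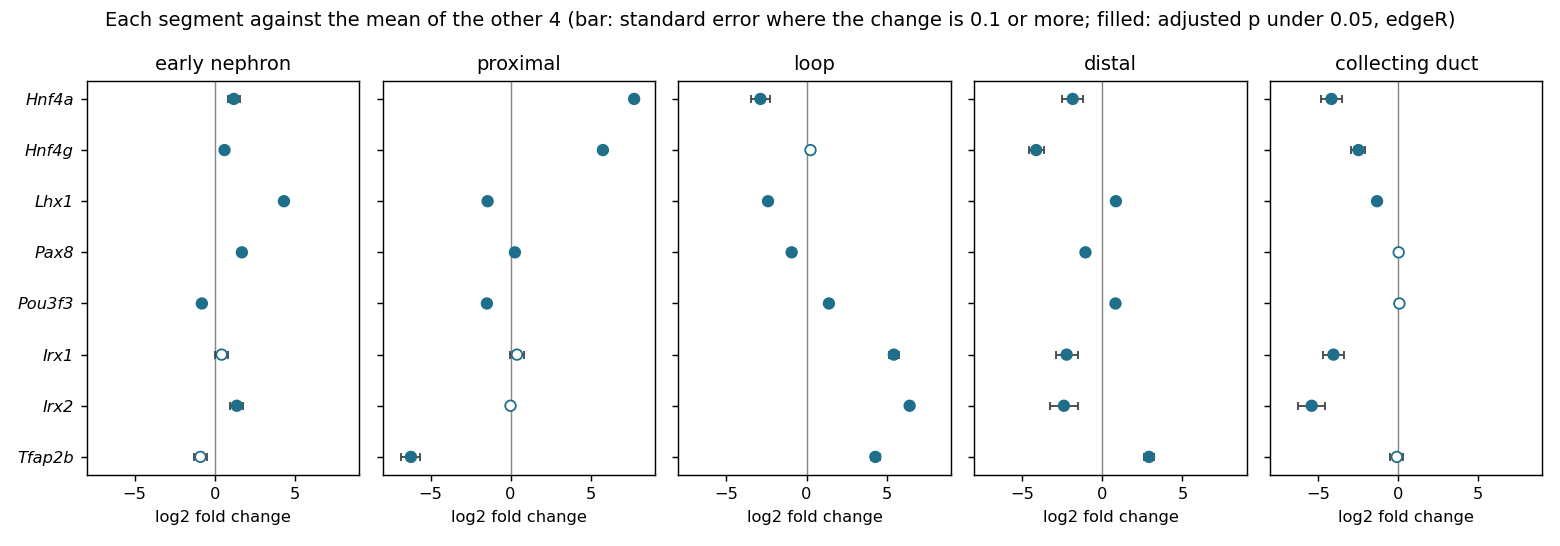
Log2 fold change of each factor in each segment against the mean of the other 4 segments, with its standard error where one was computed. Filled symbols passed the edgeR test at an adjusted p under 0.05; Hnf4a in proximal cells reached 7.72 and Irx2 in loop cells 6.44.

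Hnf4a, the nuclear receptor of proximal tubule differentiation, was found at 281 and 267 CPM in proximal cells (274 ± 9.97, SD, n = 2). It lay at 12.4 and 4.72 CPM in early nephron, 0.676 and 1.002 CPM in loop, 3.22 and 0.424 CPM in distal, and 0.176 and 0.737 CPM in collecting duct cells. Proximal cells thus stood far above every other segment in both libraries, with no overlap. The proximal log2 fold change was 7.72 ± 0.20 (SE, adjusted p = 1.60e-11, edgeR with Benjamini-Hochberg adjustment). Early nephron cells were next in order and differed both from proximal cells (a difference of 5.22 on the log2 scale, adjusted p = 8.61e-09, edgeR) and from distal cells (2.45, adjusted p = 3.65e-03). The levels of the loop, distal and collecting duct were not separated from each other. Stromal, endothelial and immune cells, which should lack Hnf4a, held 0.196 to 2.31 CPM, so the levels of the loop, distal and collecting duct cells were of the size of that background or close to it. Barcodes under 100 UMIs, which mostly carry free RNA, held 29.01 and 29.96 CPM.

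Early nephron cells were called higher than the mean of the other segments for Hnf4a (1.198 ± 0.357, adjusted p = 1.08e-02, edgeR). That call rested on little, because the plain differences of log2(CPM + 1) were 0.95 in replicate 1 and -0.08 in replicate 2. It was lost with DESeq2 and with cells thinned to 3000 UMIs. The distal call for Hnf4a (-1.86, adjusted p = 4.12e-02, edgeR) was lost under the same settings, with the mitochondrial limit at 10% and with cells of at least 10000 UMIs.

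The Hnf4a gene lies on the plus strand at chr2:163506808-163572910 of GRCm38. RefSeq (GRCm38.p6) lists 2 promoters for it, and the one at the downstream start is printed because it carries a motif of another nephron factor family. It covers chr2:163546943-163547154 on the plus strand, 212 bases after exon bases were left out. Capitals mark matches of GTTAAT, read on either strand, the half-site of the HNF1 homeodomain factors of the tubule.

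Hnf4a: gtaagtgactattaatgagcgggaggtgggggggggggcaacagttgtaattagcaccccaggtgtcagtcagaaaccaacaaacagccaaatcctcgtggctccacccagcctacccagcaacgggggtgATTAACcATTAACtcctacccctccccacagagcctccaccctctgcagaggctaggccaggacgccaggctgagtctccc

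It held 2 such matches, both on the minus strand and 1 base apart, while 6.43% of 32851 RefSeq promoters held at least 1. The upstream Hnf4a promoter held no match, and neither held CAAAGT, the core of the HNF4 site itself, which occurs in 12.6% of promoters. Both motifs were searched on both strands. A match describes the letters of the window and does not show binding.

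Hnf4g, the second HNF4 gene of the mouse genome, stood at 168 and 132 CPM in proximal cells (150 ± 25.4, SD, n = 2). Early nephron cells held 14.5 and 6.80 CPM, loop cells 11.6 and 4.92 CPM, distal cells 0.920 and 0.424 CPM and collecting duct cells 2.998 and 0.921 CPM. Its order of segments differed from that of Hnf4a in the loop, where Hnf4g remained well above its distal level. The proximal log2 fold change was 5.77 ± 0.15 (SE, adjusted p = 1.20e-11, edgeR). Early nephron and loop cells were not separated for Hnf4g (0.30, adjusted p = 0.274), while 8 of its 10 pairs of segments were. The distal value rested on 2 and 2 UMIs. The early nephron call for Hnf4g (0.62, adjusted p = 4.55e-02) sat at the threshold and was lost with DESeq2, with the mitochondrial limit at 10%, with doublets kept and without S100g in the distal gate. Stromal, endothelial and immune cells held at most 0.659 CPM of Hnf4g. Hnf4g lies on the plus strand at chr3:3508030-3658052.

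Lhx1, a factor of renal vesicle formation and of nephron patterning, reached 939 and 965 CPM in early nephron cells (952 ± 18.4, SD, n = 2). It fell in order to 176 and 84.0 CPM in distal, 55.7 and 33.7 CPM in collecting duct, 43.8 and 24.4 CPM in proximal, and 26.2 and 17.7 CPM in loop cells. Replicate 1 exceeded replicate 2 in the 4 segments with the lower levels, and the early nephron levels overlapped with none of them. The early nephron log2 fold change was 4.33 ± 0.13 (SE, adjusted p = 2.75e-10, edgeR). Distal cells were also above the mean of the others for Lhx1 (0.84, adjusted p = 1.01e-03), while loop cells were the lowest (-2.40, adjusted p = 1.18e-06). Collecting duct and proximal cells were not separated (0.08, adjusted p = 0.773), and the other 9 of 10 pairs were. The distal call was lost when the mitochondrial limit was lowered to 10%. Lhx1 lies on the minus strand at chr11:84518284-84525535.

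Pax8, which acts with Pax2 in the first steps of nephron formation, was found in every segment. It stood at 508 and 489.9 CPM in early nephron cells (499 ± 12.7, SD, n = 2), 221 and 187 CPM in collecting duct, 202 and 175 CPM in proximal, 123 and 94.1 CPM in loop, and 105 and 83.2 CPM in distal cells. Its early nephron level exceeded every other segment in both libraries, yet all 5 segments lay far above the 3.004 to 5.80 CPM of stromal, endothelial and immune cells. Barcodes under 100 UMIs held 109.7 and 86.7 CPM of Pax8, close to its loop and distal levels. The early nephron log2 fold change was 1.70 ± 0.08 (SE, adjusted p = 5.38e-09, edgeR). Loop cells (-0.93, adjusted p = 1.31e-05) and distal cells (-1.06, adjusted p = 5.37e-06) were lower. Collecting duct and proximal cells were not separated for Pax8 (adjusted p = 0.147), nor were loop and distal cells (adjusted p = 0.606). The proximal call (0.27, adjusted p = 1.95e-02) was small and was lost when library totals alone set the scale and when the leading marker of each segment was left out of its gate. Pax8 lies on the minus strand at chr2:24420560-24475599.

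Irx1 and Irx2 are members of the Iroquois A cluster and lie 665 kb apart on chromosome 13, at chr13:71957921-71963723 on the minus strand and chr13:72628820-72634198 on the plus strand, with 0 annotated protein-coding genes between them. Both were highest in loop cells and far lower elsewhere. Irx1 stood at 284 and 247 CPM in loop cells (266 ± 25.8, SD, n = 2), 18.2 and 16.8 CPM in early nephron, 6.17 and 25.7 CPM in proximal, 6.90 and 1.91 CPM in distal, and 1.06 and 2.03 CPM in collecting duct cells. The loop log2 fold change of Irx1 was 5.46 ± 0.29 (SE, adjusted p = 4.50e-08, edgeR). Its proximal levels differed between the libraries and lay on opposite sides of the mean of the other segments, so no proximal direction can be given. Early nephron cells did not pass for Irx1 (0.44), but with the leading marker left out of each gate, Wnt4 among them, their fold change was 2.15 and passed. Stromal, endothelial and immune cells held at most 3.29 CPM of Irx1, and the collecting duct level was below that.

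Irx2 stood at 129 and 123 CPM in loop cells (126 ± 4.53, SD, n = 2), 8.13 and 8.12 CPM in early nephron, 1.60 and 5.23 CPM in proximal, 0.460 and 1.06 CPM in distal, and 0 and 0.368 CPM in collecting duct cells. The collecting duct value came from 0 and 2 UMIs and the distal value from 1 and 5 UMIs, at or below the background of up to 1.97 CPM in stromal, endothelial and immune cells. Irx2 was 6.44 ± 0.23 higher in loop cells on the log2 scale (SE, adjusted p = 1.20e-09, edgeR) and 1.39 higher in early nephron cells (adjusted p = 8.87e-03). The early nephron call for Irx2 was lost with the mitochondrial limit at 10%, with doublets kept and with cells thinned to 3000 UMIs.

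Of the 6 factors with a RefSeq promoter, Irx2 was the only one whose window held a match of GCCNNNGGC, the palindromic site of the AP-2 family to which Tfap2b belongs. It is printed because Tfap2b and Irx2 were both highest in loop cells. The window covers chr13:72628570-72628819 on the plus strand of GRCm38.p6, and the match is in capitals.

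Irx2: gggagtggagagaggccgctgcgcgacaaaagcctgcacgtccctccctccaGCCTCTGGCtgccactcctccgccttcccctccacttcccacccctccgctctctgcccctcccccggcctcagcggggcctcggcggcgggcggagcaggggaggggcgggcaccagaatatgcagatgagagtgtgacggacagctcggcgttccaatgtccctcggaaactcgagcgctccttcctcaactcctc

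The site was found in 13.7% of the 32851 promoters, searched on both strands, so its presence in 1 of the 7 windows of these factors is common among promoters.

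Tfap2b and Pou3f3 shared the loop and the distal tubule. Tfap2b stood at 626 and 476 CPM in loop cells (551 ± 107, SD, n = 2) and 316 and 174 CPM in distal cells. It lay at 57.5 and 49.9 CPM in collecting duct, 14.3 and 57.8 CPM in early nephron, and 0.943 and 2.07 CPM in proximal cells. Tfap2b was higher in loop cells (4.30 ± 0.30, SE, adjusted p = 4.80e-07, edgeR) and in distal cells (2.91 ± 0.33, adjusted p = 2.17e-05). In proximal cells, at or below the highest background level of 5.26 CPM, it was lower by the largest negative fold change of the 40 tests (-6.22 ± 0.59, adjusted p = 2.09e-06). Loop and distal cells were not separated (1.11, adjusted p = 0.0745). The early nephron level of Tfap2b was low in replicate 1 and close to the collecting duct level in replicate 2, and its test did not pass (-0.89). Its direction depended on the gate, since with the leading marker left out of each list the early nephron fold change was 0.74 and passed.

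Tfap2b lies on the plus strand at chr1:19208914-19238576. Its RefSeq promoter at chr1:19211804-19212053, plus strand, is shown beside that of Hnf4a, a gene highest in a different segment. Among the 6 factors with a RefSeq promoter, only these had a window with an HNF1 half-site (GTTAAT, in capitals). Hnf4g and Irx1 had no window to search.

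Tfap2b: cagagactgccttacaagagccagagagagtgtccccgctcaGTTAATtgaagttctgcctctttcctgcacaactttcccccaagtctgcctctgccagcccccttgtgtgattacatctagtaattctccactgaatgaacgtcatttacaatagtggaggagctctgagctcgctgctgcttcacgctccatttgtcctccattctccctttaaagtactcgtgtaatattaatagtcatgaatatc

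The promoters of Lhx1, Pax8 and Pou3f3 held no match of the 4 motifs searched, and ATGCAA, part of the octamer bound by POU factors such as Pou3f3, was in none of the 7 windows although 9.45% of all promoters held it.

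Pou3f3 stood at 232 and 188 CPM in loop cells (1.40 ± 0.15 on the log2 scale, SE, adjusted p = 1.89e-05, edgeR), 182 and 110.1 CPM in distal, 118 and 106 CPM in collecting duct, 54.8 and 80.4 CPM in early nephron, and 32.4 and 44.7 CPM in proximal cells. Its largest difference between segments, proximal minus loop, was -2.30 (adjusted p = 2.63e-06, edgeR). Distal cells passed as higher for Pou3f3 (0.81, adjusted p = 1.95e-03), while early nephron (-0.80, adjusted p = 1.91e-03) and proximal cells (-1.48, adjusted p = 2.42e-05) passed as lower. The early nephron call for Pou3f3 ended, at a fold change of 0.0015, with the leading marker left out of each gate, and that fold change ran from -1.196 to -0.44 with 1 library left out. Loop and distal cells were again not separated (0.47, adjusted p = 0.144), and the other 9 pairs were. All 5 segments exceeded the 1.96 CPM found at most in stromal, endothelial and immune cells. Barcodes under 100 UMIs, however, held 31.0 and 44.9 CPM of Pou3f3, close to its proximal level. Erythroid cells of replicate 1 held 37.6 CPM. What part of the proximal level came from free RNA was not tested. Pou3f3 lies on the plus strand at chr1:42695768-42703176.

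Outside the 5 segments, the factors were found in other epithelial classes. Intercalated cells, the cells of acid and base transport in the collecting system, held 50.2 and 44.8 CPM of Tfap2b and 99.6 and 81.7 CPM of Pou3f3. They also held 170 and 99.1 CPM of Pax8 and 36.6 and 15.8 CPM of Lhx1. Podocytes held 121 and 71.9 CPM of Pax8 and 42.0 and 16.2 CPM of Lhx1. Nephron progenitors held 66.4 and 71.3 CPM of Pax8 but only 4.76 and 2.81 CPM of Lhx1, which is no higher than the background maximum of 5.91 CPM. From progenitors to early nephron cells Lhx1 thus went from background to its highest level, while Pax8 was present in both classes; these steps were not tested. Erythroid cells, which should lack all 8, differed between the libraries. The 43 erythroid cells of replicate 1 held 81.2 CPM of Irx1 (41 UMIs), 57.4 CPM of Pax8, 37.6 CPM of Pou3f3 and 35.7 CPM of Lhx1. The 73 erythroid cells of replicate 2 held at most 1 UMI of Irx1, Pax8 and Lhx1 each and 6 UMIs of Pou3f3. Barcodes under 100 UMIs held every factor, from 12.03 CPM of Hnf4g in replicate 2 to 109.7 CPM of Pax8 in replicate 1, with Lhx1 at 75.2 and 37.8 CPM, Tfap2b at 45.1 and 59.4 CPM and Irx1 at 37.1 and 40.5 CPM.

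**Figure D3:**
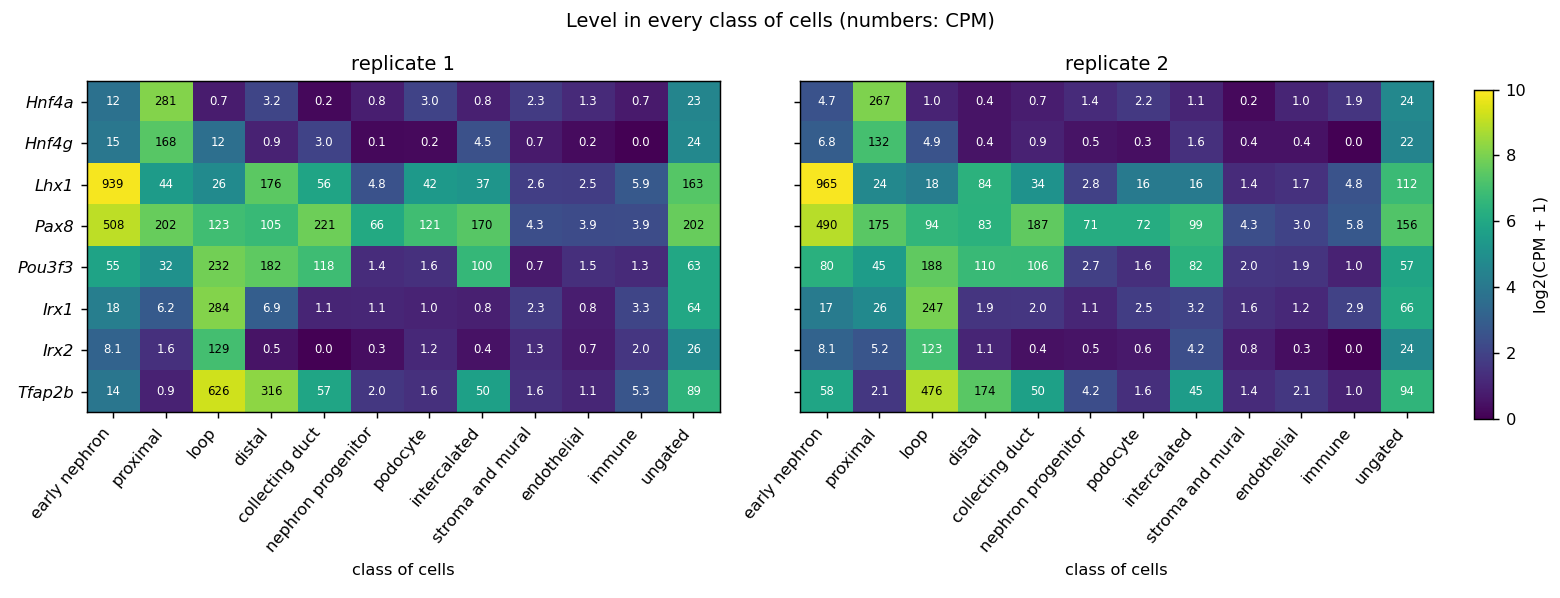
Levels of the 8 factors in marker-gated classes and, in the last column, in cells that met no gate, 1 heat map per library, coloured by log2(CPM + 1) with the CPM printed in each cell. Stromal, endothelial and immune columns stay at or under 5.91 CPM for every factor.

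Single cells were described by the share with at least 1 UMI, taken after each cell was thinned to 3000 UMIs so that depth was equal. Hnf4a was then found in 48.0% and 48.6% of proximal cells and in at most 3.83% of the cells of any other segment, and Hnf4g in 29.7% and 28.6% of proximal cells and at most 5.58% elsewhere. Irx1 was found in 45.9% and 40.4% of loop cells and at most 5.24% elsewhere, and Irx2 in 24.03% and 26.95% of loop cells and at most 2.13% elsewhere. The other 4 factors were spread over more segments. Lhx1 was in 76.6% and 71.4% of early nephron cells and in 37.5% and 18.5% of distal cells. Tfap2b was in 71.2% and 67.4% of loop cells, 48.8% and 41.4% of distal cells and 15.4% and 15.5% of collecting duct cells. Pax8 was in 63.4% and 64.3% of early nephron, 47.9% and 39.2% of collecting duct and 42.0% and 35.2% of proximal cells. Pou3f3 was in 43.3% and 39.0% of loop, 37.5% and 26.8% of distal and 29.9% and 25.8% of collecting duct cells. In stromal, endothelial and immune cells the thinned share was at most 0.786% for Hnf4a, 1.28% for Irx1, 1.45% for Tfap2b and 3.85% for Lhx1. Median depth before thinning was 9881.5 to 13935 UMIs in those background classes and 17000 to 42554 UMIs in the segments.

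Hnf4a and Hnf4g, and likewise Irx1 and Irx2, were often found in the same cells, with the smallest excess in thinned loop cells of replicate 2. Each of these pairs shares both its family and its highest segment, so the part of either cannot be told apart here. All shares in this paragraph are of cells with at least 1 UMI before thinning unless said otherwise. In early nephron cells Hnf4a was detected in 29 of the 43 cells with Hnf4g in replicate 1 (67.4%) and in 10 of 19 in replicate 2 (52.6%), beside 23.0% and 21.4% of all early nephron cells. Irx1 was detected in 17 of 22 (77.3%) and 7 of 11 (63.6%) early nephron cells with Irx2, beside 13.2% and 15.7% of all of them. For factors of different segments, Hnf4a was detected in 8 of 31 (25.8%) and 1 of 11 (9.09%) early nephron cells with Irx1, close to or below its share of all early nephron cells. In loop cells Irx1 was detected in 95.1% and 93.1% of cells with Irx2, beside 77.7% and 76.6% of all loop cells. After thinning these shares were 71.4% and 48.7%, beside 45.9% and 40.4% of all thinned loop cells. Deeper cells show more of every gene, and the cells of 1 library are not replicates, so these shares carry no test.

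Within a segment, cells differ in how much of the segment's own marker RNA they carry. Cells of each segment and library were ranked by the share of their UMIs in the segment's markers and divided into tertiles, and the highest tertile was tested against the lowest with edgeR. Of 40 such tests of the 8 factors 9 passed, all 9 with the lower level in the highest tertile, beside 10.4% of tests over all genes in either direction and 4.92% lower. By segment, 5 of the 9 were in proximal cells, where 26.6% of all genes passed, and 1 each in loop (8.97%), distal (3.48%), collecting duct (12.4%) and early nephron cells (0.462%). Between segments these differences themselves differed in 13 of 80 tests, beside 5.58% over all genes.

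Lhx1 accounted for 4 of the 9. In the lowest and highest tertile of collecting duct cells it was at 115 and 14.3 CPM in replicate 1 and at 59.7 and 13.7 CPM in replicate 2 (-2.45 ± 0.39, adjusted p = 1.36e-04, edgeR). In distal cells it went from 291 to 74.1 CPM and from 148 to 45.2 CPM (-1.71 ± 0.32, adjusted p = 2.11e-03). The loop (-1.61 ± 0.34, adjusted p = 3.69e-03) and proximal cells (-1.17 ± 0.30, adjusted p = 5.70e-03) moved the same way. In early nephron cells, by contrast, the Lhx1 difference was 0.58 and did not pass. Other genes moved with these tertiles. The lowest collecting duct tertile held Ret, a receptor of the ureteric bud tip, at 155 and 119.8 CPM and Wnt11, a tip ligand, at 143 and 128 CPM, against at most 3.19 CPM for either in the highest tertile. In distal cells S100g rose from 4111 to 44676 CPM between the lowest and highest tertile of replicate 2. Markers of other cells moved as well, since the summed collecting duct markers rose from 73.1 to 1047 CPM and from 149 to 859.6 CPM across the distal tertiles. Slc12a3, the salt transporter of the distal convoluted tubule, went from 2843 to 665 CPM and from 3378 to 2102 CPM. Their part in the Lhx1 difference was not tested. With S100g left out of the distal gate, the Lhx1 difference in distal cells was 0.19, so that result depends on S100g. With cells thinned to 3000 UMIs none of the 4 Lhx1 differences passed.

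In proximal cells the highest tertile was also lower for Hnf4g (240.1 to 98.1 and 173 to 80.4 CPM, -0.92, adjusted p = 3.48e-03, edgeR), for Pax8 (278 to 140.2 and 221 to 124 CPM, -0.63, adjusted p = 4.28e-03), for Irx1 (15.8 to 0.859 and 51.7 to 5.13 CPM, -3.29, adjusted p = 1.85e-03) and for Irx2 (3.60 to 0.644 and 12.6 to 0.641 CPM, -3.18, adjusted p = 2.10e-03). Hnf4a differed in the other direction there without passing (0.56, adjusted p = 0.0994). Proximal cells with few proximal marker transcripts thus had higher Irx1 and Irx2 levels than those with many. The highest tertile rested on 4 and 16 UMIs of Irx1 and on 3 and 2 UMIs of Irx2. Its Irx2 levels were under the highest background level of 1.97 CPM, so the size of these fold changes is uncertain. Depth and mitochondrial RNA moved with the same tertiles. Median UMIs per proximal cell rose from 21628 to 41276 in replicate 1 and from 38662.5 to 49324.5 in replicate 2, and the median mitochondrial share rose from 5.98% to 13.6% and from 6.59% to 12.2%. Their part in the result was not tested. The last of the 9 was Tfap2b in early nephron cells, at 32.0 against 3.78 CPM and 151 against 0.923 CPM (-4.96 ± 0.79, adjusted p = 4.67e-03, edgeR). Early nephron cells with the most Wnt4-led marker RNA held 14 and 2 UMIs of Tfap2b, under the highest background level in CPM in both libraries.

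**Figure D4:**
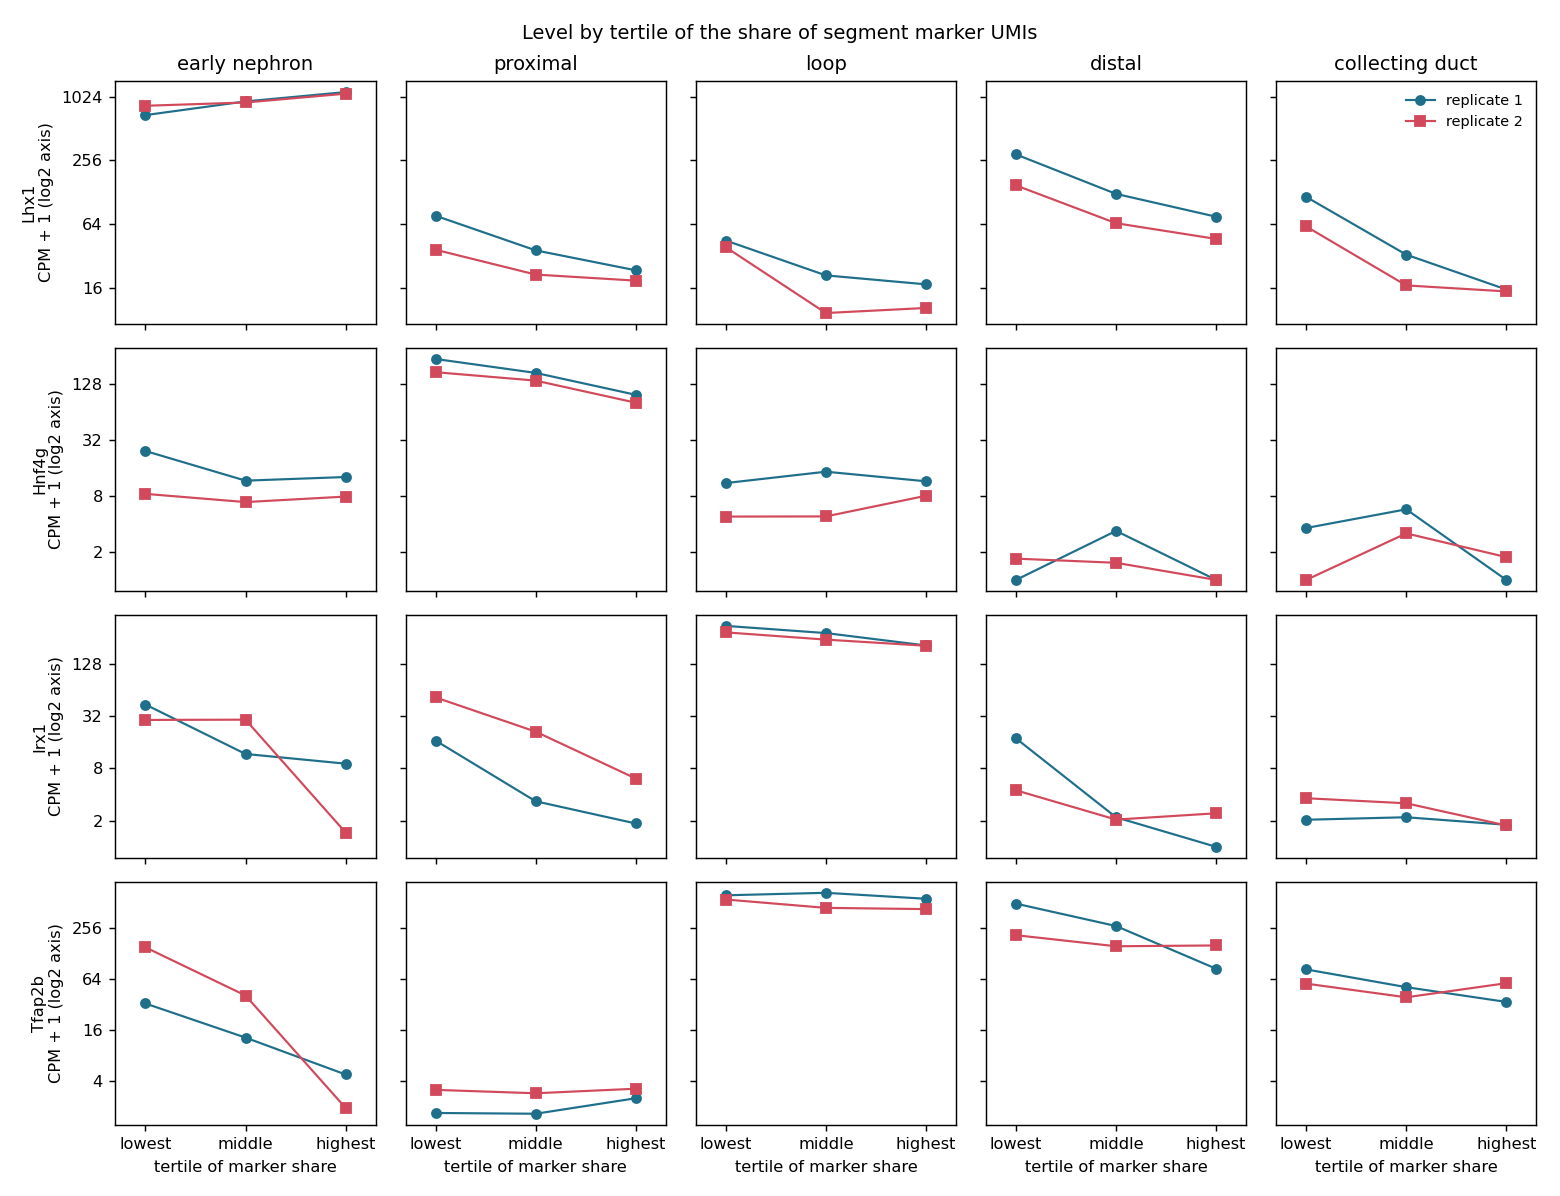
Levels of Lhx1, Hnf4g, Irx1 and Tfap2b (CPM + 1, log2 axis) in the lowest, middle and highest tertile of marker share within each segment, 1 line per library. Lhx1 is lower in the highest than in the lowest tertile in 4 segments and not in early nephron cells, and Tfap2b falls in early nephron cells.

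A list of 39 other nephron transcription factors, also chosen with earlier results of these data known, was tested in the same way. Of these, 37 had enough counts to be fitted (Barx2 and Sall4 had not). Of their 185 tests 156 passed, 81 higher and 75 lower, beside the 48.2% of all genes. Early nephron cells had 20 higher and 16 lower (32.7% and 31.5% of all genes) and proximal cells 12 and 20 (31.1% and 26.4%). Loop cells had 17 and 10 (20.9% and 12.8%) and distal cells 17 and 11 (21.5% and 21.8%). In collecting duct cells there were 15 and 18 (22.0% and 20.5%). The list's median log2 fold change was 0.53 in early nephron, -0.56 in proximal, 0.67 in loop, 0.67 in distal and -0.55 in collecting duct cells. Unlike the 8 factors, this list held genes highest in the distal tubule and the collecting duct.

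In early nephron cells the largest fold changes were those of Foxq1 (-7.31), Esrrb (-5.80) and the Notch target Hey1 (5.70, at 66.3 and 48.1 CPM), with adjusted p of at most 1.70e-07 by edgeR. Foxq1 rested there on 3 and 6 UMIs and Esrrb on 1 and 1 UMIs. With so few UMIs the size of a negative fold change is uncertain. In proximal cells Maf, a leucine-zipper factor, rose by 6.22 and stood at 906 and 536 CPM (adjusted p = 1.79e-12). Sox9 (-6.16, on 14 and 5 UMIs) and Sall3 (-6.15, on 1 and 2 UMIs) were lower. In loop cells Sim2, a bHLH-PAS factor, was at 136 and 105 CPM (6.67, adjusted p = 3.03e-10) and the nuclear receptor Esrrb at 98.9 and 68.1 CPM (5.89, adjusted p = 3.31e-11). Foxi1 was lower there (-4.81, adjusted p = 1.30e-03), on 2 and 0 UMIs. Distal cells had the homeodomain factor Emx1 at 351 and 334 CPM (6.25, adjusted p = 2.52e-11), Sall3 at 155 and 95.5 CPM (5.98) and Foxi1 at 48.3 and 16.1 CPM (5.37). Collecting duct cells had the ETS factor Elf5 at 157 and 149 CPM (7.20, adjusted p = 8.90e-11), Gata2 at 105.3 and 104.8 CPM (6.51) and Foxi1 at 51.8 and 56.5 CPM (6.23). Foxi1 is the known factor of intercalated cells, whose 6 markers summed to 286 and 156 CPM in distal and 283 and 259 CPM in collecting duct cells; their part in the Foxi1 levels was not tested.

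The genes whose profiles over the 10 sums were most like each factor were found by Pearson's r of log2(CPM + 1) over 9820 genes. The 10 points share 2 libraries and 5 segments, so r is a description without a test. Irx1 and Irx2 were each other's closest gene (r = 0.974), followed by Adgra3 for Irx1 (0.957) and Sim2 for Irx2 (0.964). Hnf4a was closest to Slc47a1 (0.989), which encodes an organic cation exporter of the proximal tubule, and to Anks4b (0.988). Hnf4g was closest to Inpp5f (0.988) and Gpm6a (0.980), Lhx1 to Lhx1os (0.984) and Enc1 (0.950), and Pax8 to Kcnh8 (0.993) and Fchsd2 (0.986). Tfap2b was closest to Ints6l (0.995) and Emb (0.984), and Pou3f3 to the growth factor gene Fgf9 (0.991) and the ephrin receptor gene Ephb3 (0.981).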

How the data were processed

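The authors deposited raw UMI counts per gene and barcode for both libraries, with all barcodes kept. Cells were sequenced from the 3' end of the cDNA on the Chromium platform, per the labels' protocols. Cell Ranger 4 made the matrices per the file headers, while the submitters' processing notes name Cell Ranger 6.0.1 and mm10. The libraries held 200331687 and 173166168 UMIs over 2761081 and 2545815 barcodes. Whether counting used the strand is not given in the sources used here.

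The members and gene lists were chosen with earlier results of these data known. Barcodes were kept from 3000 UMIs and 500 genes upward when 13 mitochondrial genes gave no more than 20% of the UMIs (5529 and 4206). Scrublet in scanpy 1.11.5 scored doublets, and the top 0.8% per 1000 barcodes were removed (245 and 142). A cell was assigned to 1 of 15 classes by 112 markers when its share of UMIs in that class's list was at least 3 times the mean over cells, at least 2 times the next such ratio, and at least 3 of the markers were present. The markers were fixed first, but these thresholds were set after seeing the data.

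Raw counts were summed per library and segment (10 sums, 4 residual degrees of freedom) and fitted with edgeR 4.0.16 in R 4.3.3 (TMM, filterByExpr, quasi-likelihood test, two-sided). The library was a block in this fit because each library gave every class. Benjamini-Hochberg adjustment ran over 15530 tested genes that were no gate marker, or 14286 genes in the fit of tertiles (30 sums, 14 residual degrees of freedom). The SE is the fold change divided by the root of the F statistic. Tested on simulated counts for the loop contrast (14889 genes), the fit recovered 61.6% of 99 genes changed 2-fold and 100% of 99 changed 4-fold, with 3 false calls. The simulation gave every gene the same spread and no library difference, and it changed only genes above a minimum level. All other genes were equal between segments, whereas 48.2% of all tests passed in the real sums. Recovery and false calls in the real sums, or at low levels, were therefore not measured.

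Besides the 8 members, the text names from the other transcription factors the 3 per segment with the largest absolute fold change that passed and had 1 direction in both libraries, and the 2 genes most like each member. DESeq2 1.42.0, other scalings, filters, gates, depths and each library alone were tried as alternatives. The gates without S100g or without leading markers were chosen after seeing the data. Coordinates are from GENCODE M21 (GRCm38), in which 32158 of the 32285 gene identifiers were found. Promoters are from RefSeq, which matched 6 of the 8 members.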

Additional observations from a re-analysis of the deposited data

Results flagged for a closer look

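The tertile differences of a factor were themselves compared between segments with edgeR, and 13 of 80 such comparisons passed with Benjamini-Hochberg adjustment over all tested genes. Each value below is a difference of 2 log2 fold changes, highest against lowest tertile of marker share. For Lhx1 the early nephron difference lay above that of proximal cells by 1.74 (adjusted p = 0.00519, edgeR), of loop cells by 2.18 (adjusted p = 0.00552), of distal cells by 2.29 (adjusted p = 0.00508) and of collecting duct cells by 3.02 (adjusted p = 0.000228). For Tfap2b, early nephron minus proximal was -5.69 (adjusted p = 0.0474), minus loop -4.81 (adjusted p = 0.00620) and minus collecting duct -4.49 (adjusted p = 0.00903). For Pax8, early nephron minus proximal was 1.05 (adjusted p = 0.00321) and minus loop 0.89 (adjusted p = 0.0277). Also for Pax8, proximal minus distal was -1.12 (adjusted p = 0.00880), proximal minus collecting duct -0.74 (adjusted p = 0.0439) and loop minus distal -0.96 (adjusted p = 0.0343). For Irx2, proximal minus loop was -2.99 (adjusted p = 0.0269, edgeR), with only 3 and 2 UMIs in the highest proximal tertile. The distal Lhx1 difference turned to 0.19 without S100g in the gate. Proximal cells held 0.641 to 2.24 CPM of Tfap2b in all tertiles, under the background of up to 5.26 CPM, so that comparison has no proximal signal. The tertiles also differed in depth and mitochondrial share, whose part was not tested.

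Cells that met no gate made up 45.3% and 43.3% of all cells, and every factor lay there above its highest level in stromal, endothelial and immune cells. Their mean levels (± SD, n = 2) were 23.5 ± 1.27 CPM for Hnf4a, 23.2 ± 1.71 CPM for Hnf4g, 138 ± 36.0 CPM for Lhx1 and 179 ± 32.9 CPM for Pax8. They were 59.7 ± 4.27 CPM for Pou3f3, 64.9 ± 1.81 CPM for Irx1, 25.1 ± 1.04 CPM for Irx2 and 91.2 ± 3.21 CPM for Tfap2b. The segment comparisons therefore leave out many cells that carry these factors. Among these cells, Irx1 was detected in 89.2% and 91.0% of those with Irx2, against 11.7% and 14.1% of all of them.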

How the results depend on the processing

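Member calls ran from 25 to 35 of 40 over the alternatives for segments and from 59 to 70 of 80 for pairs. Without the library block, which pairs the segments of a library, they were 28 and 60, and the tertile calls were 6. The other factors had 102 calls when cells were thinned to 3000 UMIs and otherwise at most 166. Tertile calls were 18 without a filter, 17 with a looser gate and 3 after thinning. With 1 library left out there are no residual degrees of freedom, so only fold changes were computed. Library totals without TMM moved the median of all genes by 0.20 in collecting duct, -0.19 in proximal, -0.14 in distal and 0.13 in early nephron cells.

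Directions turned mostly for values that had not passed. Without leading markers, early nephron values were 0.74 for Tfap2b and 0.0015 for Pou3f3, proximal Irx1 was -0.34, loop Hnf4g -0.32, and collecting duct values were -0.17 for Pou3f3 and -0.048 for Pax8. With at most 10% mitochondrial UMIs, early nephron Irx1 was -0.039, loop Hnf4g -0.0050 and collecting duct Pax8 -0.077. Proximal Irx2, near 0, was 0.011 with DESeq2, 0.028 without a filter, 0.030 without the block, 1.17 with a stricter gate, 0.59 after thinning. Collecting duct Tfap2b was 0.087 without TMM and 0.50 after thinning. With 1 library left out, proximal Irx1 ran from -0.97 to 1.23, proximal Irx2 from -0.80 to 0.12, loop Hnf4g from -0.026 to 0.27, and collecting duct values from -0.43 to 0.28 for Tfap2b, from -0.044 to 0.19 for Pou3f3 and from -0.010 to 0.058 for Pax8. Loop Hnf4g was -0.070 without S100g, and collecting duct Pax8 was -0.00075 without a filter. The Lhx1 tertile difference in distal cells turned to 0.19 without S100g and 0.21 without leading markers. Of the segment and tertile fold changes of the 8 factors that passed, which were recomputed under every alternative that could be run, only this one and Pou3f3 in early nephron cells turned. The cause was not tested. Depth limits values under a few CPM, which rest on few UMIs.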

Other observations

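Several of the 8 genes have a non-coding gene close by that was highest in the same segment in both libraries. Hnf4aos, antisense to Hnf4a, was at 123 and 115 CPM in proximal cells. Lhx1os, beside Lhx1, was at 280.2 and 293 CPM in early nephron cells. Pantr1, beside Pou3f3, was at 176 and 175 CPM in loop cells. Gm40999, near Irx1, was at 43.0 and 29.0 CPM and Gm20554, near Irx2, at 12.4 and 10.7 CPM in loop cells. Gm13415, which overlaps Pax8, was at 19.6 and 9.63 CPM in early nephron cells. Gm20646, which overlaps Pou3f3, followed it less, at 20.5 and 21.9 CPM in loop and 18.7 and 21.9 CPM in collecting duct cells. Of these, Hnf4aos and Gm13415 overlap their neighbour on the opposite strand, and Gm20646 overlaps Pou3f3 on the same strand. The use of strand in counting is not given in the sources used here. How far the reads of these pairs were kept apart is therefore not known.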
